A study of Mus musculus with 2 samples.

Results

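The genes described here encode guidance cues and their receptors of 3 families: the ephrins with the Eph receptors, the Slits with the Robo receptors, and the netrins with the Unc5 receptors. They were chosen by symbol, as the Efna and Efnb, Epha and Ephb, Slit, Robo, Ntn and Ntng, and Unc5 genes, and numbered 39 of the 32286 features listed in both libraries. There were 8 ephrins, 14 Eph receptors, 3 Slits, 4 Robo receptors, 6 netrins and netrin-G genes, and 4 Unc5 receptors. Levels are given in CPM, the UMIs (unique molecular identifiers, one per captured transcript molecule) of a gene per 1000000 UMIs of the cell population. A member counted as measured in a population with at least 5 CPM in 1 library or both. By this rule 16 members were measured in all endothelial cells, and 3 more (Epha1, Epha7 and Robo1) in arterial cells alone.

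Ephrins are membrane-bound ligands of the Eph receptor tyrosine kinases, and both partners can signal into the cell that carries them. In blood vessels ephrin-B2 is the classical arterial ligand and EphB4 the venous receptor, and the pair keeps arteries and veins apart in the embryo. Slits are secreted proteins that bind Robo receptors, with Robo4 being largely endothelial, and netrins are laminin-related secreted proteins that bind Unc5 and DCC-type receptors. All 3 families steer growing axons and also shape vessel sprouts.

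The cells came from mouse lung and carried tdTomato, a red fluorescent protein switched on in VE-cadherin-cre mice, whose recombinase is driven by an endothelial cadherin promoter. The red cells were sorted and profiled with the 10x Genomics 3' method. There were 2 libraries, 1 labelled aKO and 1 labelled aWT, both from C57BL/6J mice of 10 to 12 weeks and both with the Cre and the red reporter. By the series title the mice model hereditary hemorrhagic telangiectasia 2, a disease of vessels caused by loss of the BMP receptor gene ACVRL1, but the labels give no deleted gene, allele or inducing agent, nor the number of animals per library. With 1 library per group no difference was tested, and all intervals below are 95% intervals for counting error only.

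After filtering, the aKO library held 10415 cells with a median of 5743 UMIs, and the aWT library 14864 cells with a median of 3913 UMIs. The libraries shared 48 cell barcodes. Acvrl1 stood at 488 CPM in aKO endothelial cells and 1021 CPM in aWT, and since no deleted exon is named, these 3'-end counts are no check of the labels. Xist, transcribed from the inactive X chromosome, stood at 728 CPM in aKO and 3.60 CPM in aWT, so genotype and the sex of the animals cannot be told apart here. The summed alveolar type 2 markers stood at 37.3 CPM in aKO and 560 CPM in aWT endothelial cells, with Sftpc at 30.1 CPM in aKO and 450 CPM in aWT. The summed immune markers stood at 3.98 CPM in aKO and 73.6 CPM in aWT, and the part of these transcripts in the results was not tested.

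Cells were sorted into 5 endothelial classes by marker UMIs that include no guidance gene: general capillary-like, aerocyte-like (the large gas-exchange capillary cells marked by Car4 and Ednrb), arterial-like, venous-like and lymphatic-like, written without the suffix below. Their cell numbers differed between the libraries. General capillary cells made up 18.8% of aKO and 38.4% of aWT endothelial cells (1911 and 5496 cells), and arterial cells 8.63% of aKO and 17.8% of aWT (875 and 2546 cells). Lymphatic cells made up 16.7% of aKO and 3.63% of aWT endothelial cells (1692 and 519 cells), aerocytes 34.7% and 21.5% (3513 in aKO and 3082 in aWT), and venous cells 12.9% and 13.0% (1309 in aKO and 1854 in aWT). A pooled endothelial level therefore mixes the classes in different proportions. These shares depended on the marker rule. When a class needed 3 markers, aerocytes made up 13.2% of aKO and 17.3% of aWT endothelial cells, the other direction. Arterial cells then made up 6.77% of aKO and 7.32% of aWT endothelial cells. Lymphatic cells kept their direction, at 16.3% of aKO and 3.4% of aWT, as did general capillary cells, at 33.4% of aKO and 49.7% of aWT.

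Class purity differed as well, in general capillary cells, arterial cells, aerocytes and venous cells. In general capillary cells the summed capillary markers stood at 2210 CPM in aKO and 4621 CPM in aWT. The summed aerocyte markers stood there at 487.5 CPM in aKO and 227.8 CPM in aWT. In cells classed as arterial the summed general capillary markers stood at 1019 CPM in aKO and 3359 CPM in aWT, while the summed arterial markers stood at 1317 CPM in aKO and 1360 CPM in aWT. In aerocytes the aerocyte markers summed to 3218 CPM in aKO and 5550 CPM in aWT. In venous cells the general capillary markers summed to 1675 CPM in aKO and 2910 CPM in aWT. A stringent definition, chosen after the data had been seen, asked for 3 class markers and for more UMIs of the class's own list than of the capillary list. It left 444 aKO and 417 aWT arterial cells, with the capillary list at 565 CPM in aKO and 919 CPM in aWT, and 1109 aKO and 2274 aWT aerocytes, with that list at 219.8 CPM in aKO and 216 CPM in aWT. Stringent arterial cells made up 4.38% of aKO and 2.92% of aWT endothelial cells, and stringent aerocytes 10.9% of aKO and 15.9% of aWT. Both directions were thus opposite to those of the wider classes. In stringent venous cells (757 in aKO and 1106 in aWT) the capillary list still differed, at 1452 CPM in aKO and 2166 CPM in aWT. Median UMIs per arterial cell were 9742 in aKO and 4642.5 in aWT, and per venous cell 9930 in aKO and 5409.5 in aWT. Stringent arterial cells still differed in median UMIs, with 10351 in aKO and 5736 in aWT. Their arterial markers summed to 1866 CPM in aKO and 2410 CPM in aWT. The part of these differences in the stringent values was not tested. The stringent definition left the general capillary class as it was, so general capillary values below were not checked by it. For the other classes, stringent values or calls are given below where they change a call.

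Across all endothelial cells aKO was higher by 1.5-fold or more for 3 of the 16 measured members and lower by as much for 4, on a log2 ratio of aKO over aWT taken after adding 5 CPM to each level. Efna5, Ephb1 and Ntn1 were the higher ones, and Efnb1, Efnb2, Epha4 and Slit3 the lower ones. Of all 11182 genes measured in these cells, 11.8% were as much higher and 6.38% as much lower in aKO. The median log2 ratio was -0.08 over the 16 members and 0.09 over all measured genes. When the 5 classes were given equal weight in both libraries, none of the 3 higher members stayed past 1.5-fold, and Efnb1 also fell short of it. The share over all genes was not computed with equal weights.

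**Figure D1:**
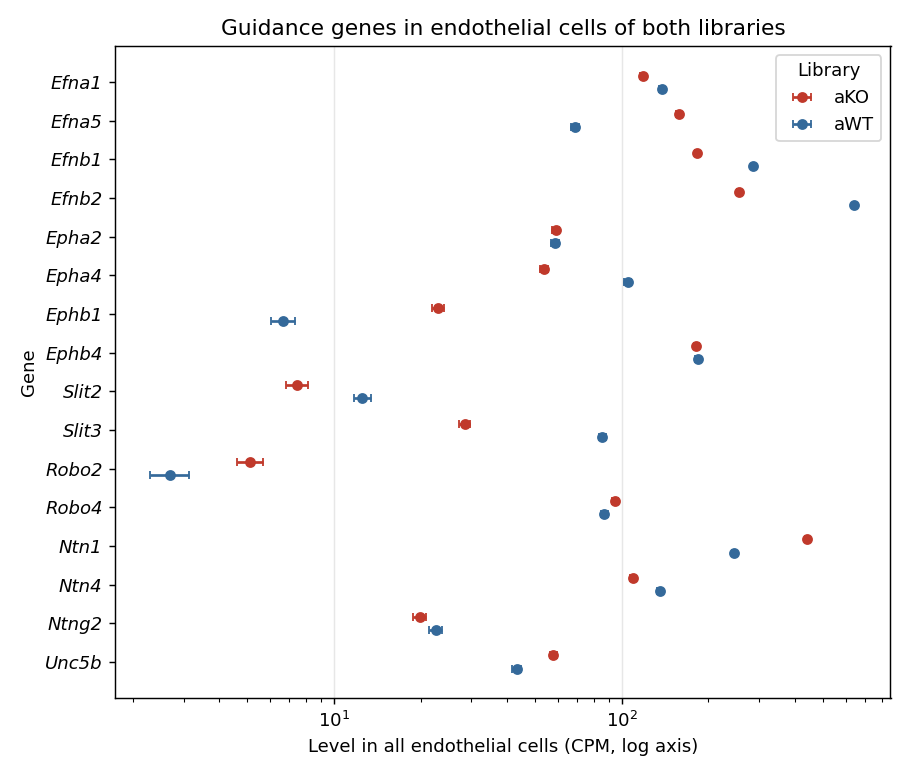
Levels of the 16 measured guidance genes in all endothelial cells, in CPM on a log axis, with aKO in red above aWT in blue and bars for 95% Poisson counting intervals. Efnb2 and Slit3 lie lower in aKO (255 and 28.5 CPM) than in aWT (641 and 85.5 CPM), Efna5 and Ephb1 lie higher in aKO (158 and 23.0 CPM) than in aWT (68.7 and 6.66 CPM), and Epha2 and Ephb4 nearly coincide.

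Among the ligands, Efnb2, which encodes the transmembrane arterial ligand ephrin-B2, stood lower in aKO than in aWT in all 4 blood vascular classes and was level in lymphatic cells. In aKO it stood at 386 CPM in general capillary, 255 CPM in aerocyte, 425 CPM in arterial, 112 CPM in venous and 191 CPM in lymphatic cells. In aWT it stood at 847.5, 375, 1059, 236 and 193.5 CPM in the same classes. Arterial cells were thus the highest class in both libraries, well above venous cells, but in aKO the stringent arterial level (401 CPM, 383 to 419) overlapped that of general capillary cells (372 to 399).

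Efnb2 in arterial cells was 2.49-fold lower in aKO (2.41 to 2.58) and 2.40-fold lower with the stringent definition, at 401 CPM in aKO and 960 CPM in aWT. In general capillary cells the difference was 2.20-fold (2.12 to 2.29) and in venous cells 2.10-fold (1.97 to 2.23). In aerocytes it was 1.47-fold (1.42 to 1.53), just short of the size rule, and with the stringent definition 1.86-fold, at 160 CPM in aKO and 297 CPM in aWT. The lymphatic ratio of aKO over aWT was 0.989 (0.901 to 1.09), an interval that includes equality.

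The share of cells with an Efnb2 UMI followed the levels once every cell had been thinned to 2000 UMIs. It was 44.9% of aKO general capillary cells (42.4% to 47.5%) and 66.0% of aWT ones (64.6% to 67.3%), against 61.0% and 73.7% before thinning at median depths of 3748 UMIs in aKO and 3255 UMIs in aWT. In thinned lymphatic cells it was 26.8% in aKO and 28.0% in aWT. As a measure of free RNA, 0 of 9 thinned alveolar type 2-like cells in aKO, which allows a share of up to 33.6%, and 2 of 40 in aWT (5.00%) held an Efnb2 UMI. Those few cells set only a loose background.

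The bases just before the RefSeq transcript start are shown for 4 genes of this module, a pair that was lower in aKO endothelial cells (Efnb2 and Epha4) and a pair that was higher (Efna5 and Ephb1), since a reader may ask which known response elements stand there. They were picked after the levels and the matches had been seen, so the contrast between the pairs is an illustration and no evidence. The sequences come from RefSeq (GRCm38.p6, the build also called mm10) and run 5′ to 3′ on the strand of the gene, here the minus strand for all 4, ending at the base before the start. Capitals mark GGCGCC, an element that BMP-activated SMADs are known to bind, and TGGGAA, the core bound by the Notch effector RBPJ, each searched on both strands.
Efnb2, chr8:8661243-8661492: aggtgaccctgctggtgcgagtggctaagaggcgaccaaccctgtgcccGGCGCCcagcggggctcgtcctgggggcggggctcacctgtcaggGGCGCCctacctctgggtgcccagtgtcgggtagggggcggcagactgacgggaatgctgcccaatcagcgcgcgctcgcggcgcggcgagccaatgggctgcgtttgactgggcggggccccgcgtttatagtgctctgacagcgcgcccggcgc
Epha4, chr1:77515089-77515338: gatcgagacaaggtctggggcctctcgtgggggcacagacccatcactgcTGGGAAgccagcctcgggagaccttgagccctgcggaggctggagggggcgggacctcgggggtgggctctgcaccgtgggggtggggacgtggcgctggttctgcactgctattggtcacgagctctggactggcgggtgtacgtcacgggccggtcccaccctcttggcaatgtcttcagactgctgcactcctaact
Efna5, chr17:62881318-62881567: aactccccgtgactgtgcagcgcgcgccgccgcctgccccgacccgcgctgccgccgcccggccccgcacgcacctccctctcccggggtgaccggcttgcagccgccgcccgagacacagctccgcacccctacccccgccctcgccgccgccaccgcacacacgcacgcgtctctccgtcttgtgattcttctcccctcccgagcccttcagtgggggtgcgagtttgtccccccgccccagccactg
Ephb1, chr9:102354694-102354943: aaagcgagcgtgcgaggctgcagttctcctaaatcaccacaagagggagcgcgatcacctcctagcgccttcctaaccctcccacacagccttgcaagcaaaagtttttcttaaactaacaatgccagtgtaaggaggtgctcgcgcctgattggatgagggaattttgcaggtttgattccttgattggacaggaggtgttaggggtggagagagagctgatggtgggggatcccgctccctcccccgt

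The Efnb2 window holds 2 copies of GGCGCC, the Epha4 window 1 copy of TGGGAA, and the windows of Efna5 and Ephb1 neither. GGCGCC was present in 9.59% of 32851 windows of the same length and in 10 of the 40 windows of the module, which belong to 35 of its genes. TGGGAA was present in 21.6% of all windows and in 7 of the 40, which belong to 6 genes, as the overlapping windows of Epha7 share a site. GGCGCC holds only G and C, which made up 72% of the Efnb2 window and 54% of the Ephb1 window. The module and all windows were not matched for base composition, so these shares are no result about the module. The windows did not sort by direction, since that of Slit3, the gene with the lowest pooled ratio, holds neither element and that of Ephb4, level in the pooled cells, holds 1 GGCGCC. A match is a run of letters and was not tested as a binding site.

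Efnb1, the X-linked gene of ephrin-B1, stood at 183 CPM in all aKO endothelial cells and 286.5 CPM in aWT. By class it was past 1.5-fold lower in aKO only outside the capillaries, and 1.205-fold lower in general capillary cells (1.149 to 1.264). It stood at 285 CPM in aKO general capillary cells and 343.5 CPM in aWT, and at 334 CPM in aKO aerocytes and 317 CPM in aWT, both within 1.5-fold. The pooled call, at a log2 ratio of -0.64, ended with equal class weights (-0.55), with every cell given equal weight (-0.35) and after thinning (-0.48). In venous cells it was 2.02-fold lower in aKO, at 127 CPM against 257 CPM in aWT, and in lymphatic cells 1.96-fold lower, at 22.4 CPM against 44.0 CPM in aWT. In cells classed as arterial it stood at 56.7 CPM in aKO and 258 CPM in aWT, 4.55-fold lower in aKO. In stringent arterial cells both levels were smaller, at 19.6 CPM in aKO and 36.5 CPM in aWT, and the difference was 1.87-fold. Both libraries thus had their highest Efnb1 levels in the capillary classes, followed in aWT by cells classed as arterial (258 CPM) and venous cells (257 CPM).

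Efna5, which encodes a ligand tethered to the membrane by a GPI anchor, belonged mainly to arterial and lymphatic cells and was low in capillaries. In aKO it stood at 17.9 CPM in general capillary, 6.96 CPM in aerocyte, 462 CPM in arterial, 63.6 CPM in venous and 396 CPM in lymphatic cells. In aWT it stood at 5.98, 4.32, 177.5, 20.7 and 487 CPM in the same classes. It was past 1.5-fold higher in aKO in general capillary, arterial and venous cells, although the general capillary call ended with every cell given equal weight (log2 ratio 0.45 in place of 1.06), and the lymphatic level was the one that lay lower in aKO, within 1.5-fold.

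The arterial difference in Efna5, 2.60-fold (2.48 to 2.74), was not present with the stringent definition, at 779 CPM in aKO and 740.5 CPM in aWT (1.05-fold, 1.00 to 1.11). The venous difference was 3.08-fold (2.66 to 3.57) and 2.00-fold with the stringent definition, at 39.8 CPM in aKO and 19.9 CPM in aWT. With the classes weighted equally the endothelial log2 ratio was 0.43, against 1.14 for the pooled cells.

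Efna1, encoding another GPI-anchored ligand that inflammatory cytokines induce in endothelium, stood at 118 CPM in all aKO endothelial cells and 138 CPM in aWT. Within classes it ranged in aKO between 60.9 CPM in venous and 156 CPM in general capillary cells, and in aWT between 65.0 CPM in venous and 212 CPM in arterial cells. It lay within 1.5-fold in all 5 classes on the scale with 5 CPM added. Stringent arterial cells were past the rule, at 128 CPM in aKO and 232 CPM in aWT (1.81-fold lower, 1.62 to 2.03).

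**Figure D2:**
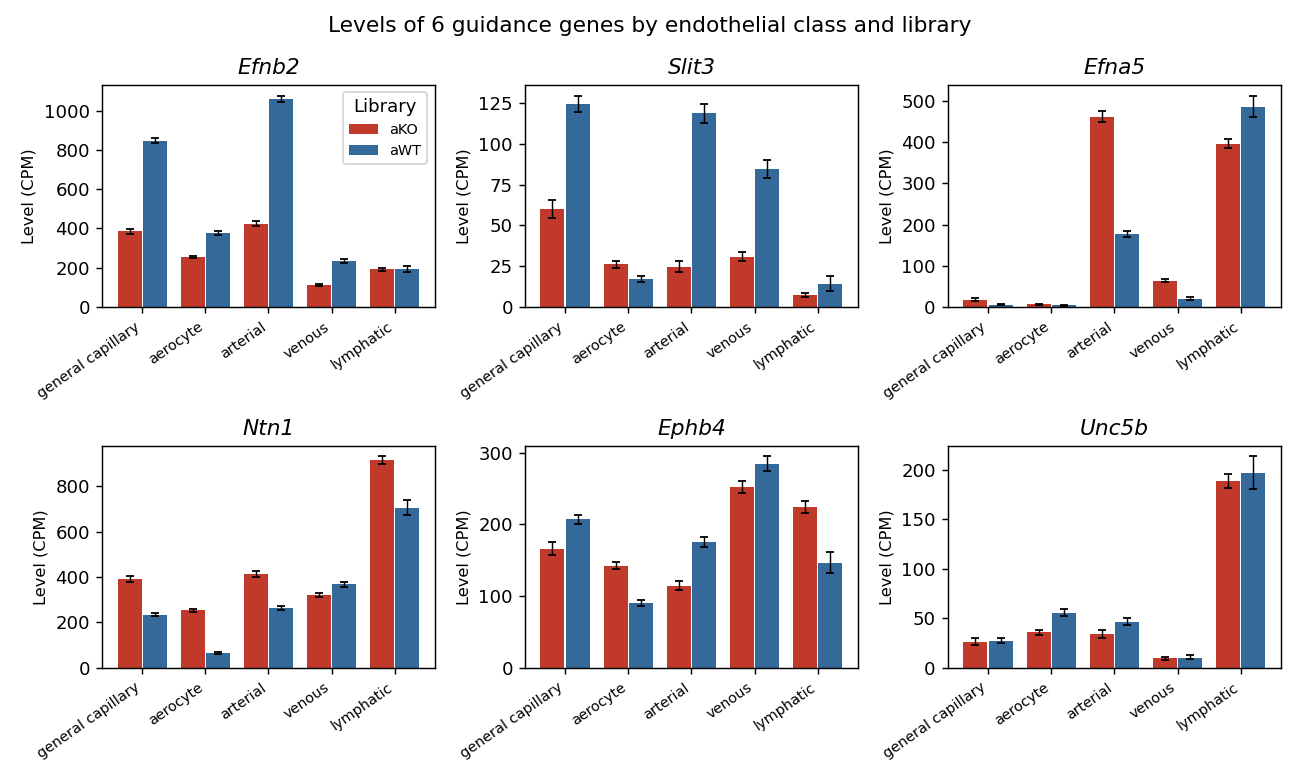
Levels in CPM of Efnb2, Slit3, Efna5, Ntn1, Ephb4 and Unc5b in the 5 endothelial classes, with aKO bars in red left of aWT bars in blue and 95% Poisson counting intervals. Efnb2 is highest in arterial cells of both libraries (425 CPM in aKO, 1059 CPM in aWT), Ephb4 in venous cells (252 CPM in aKO, 285 CPM in aWT), and Ntn1 and Unc5b in lymphatic cells.

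Among the receptors, Ephb4, which encodes the venous receptor of ephrin-B2, was nearly equal in the pooled cells, at 182 CPM in aKO and 183.5 CPM in aWT (ratio 0.990, 0.965 to 1.02). In aKO it stood at 166 CPM in general capillary, 142 CPM in aerocyte, 115 CPM in arterial, 252 CPM in venous and 224 CPM in lymphatic cells. In aWT it stood at 207, 90.2, 176, 285 and 147 CPM in the same classes. Venous cells were the highest class in both libraries.

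The class ratios of Ephb4 ran in both directions and lay close to the size rule. It was 1.58-fold higher in aKO aerocytes (1.48 to 1.68) and 1.53-fold higher in aKO lymphatic cells (1.38 to 1.70), and 1.53-fold lower in aKO cells classed as arterial (1.42 to 1.65). With the stringent definition the arterial levels were 89.3 CPM in aKO and 94.5 CPM in aWT (1.06-fold lower) and the aerocyte ratio was 1.43, so both calls ended, while lymphatic cells kept theirs at 225 CPM in aKO and 141 CPM in aWT. The lymphatic call ended with doublet calls kept (log2 ratio 0.54) and with every cell given equal weight (0.44).

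Epha4, encoding a receptor that binds ephrins of both classes, was lower in aKO general capillary, arterial and lymphatic cells. It stood at 56.3 CPM in aKO general capillary cells and 118 CPM in aWT (2.09-fold lower, 1.89 to 2.32), and at 93.7 CPM in aKO arterial cells and 162 CPM in aWT (1.73-fold lower, 1.60 to 1.87). Stringent arterial cells, at 112 CPM in aKO and 168 CPM in aWT, were just inside the rule on the scale with 5 CPM added. In aerocytes and venous cells it lay within 1.5-fold, and in lymphatic cells, its lowest class, it stood at 5.25 CPM in aKO and 17.3 CPM in aWT. Arterial cells were the highest class for Epha4 in both libraries, as for Efnb2.

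Ephb1, a receptor of B-class ephrins, was by level a lymphatic gene in both libraries, at 87.3 CPM in aKO and 69.9 CPM in aWT lymphatic cells. Pooled endothelial cells differed far more, with 23.0 CPM in aKO and 6.66 CPM in aWT (3.45-fold higher, 3.09 to 3.85), where lymphatic cells made up 16.7% of the aKO pool and 3.63% of the aWT pool. Equal class weights gave a log2 ratio of 0.47 in place of 1.26. General capillary cells stood at 14.1 CPM in aKO and 4.75 CPM in aWT (2.97-fold higher, 2.23 to 3.96). In those capillary cells the summed lymphatic markers stood at 65.9 CPM in aKO and 46.2 CPM in aWT, against 16730 CPM in aKO and 15700 CPM in aWT lymphatic cells, and the part of lymphatic transcripts in the capillary value was not tested. The arterial difference, 16.4 CPM in aKO and 5.84 CPM in aWT, was short of the rule with the stringent definition, at 12.8 CPM in aKO and 7.16 CPM in aWT.

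Epha2, the main receptor of ephrin-A1 in adult endothelium, was the flattest member, at 58.9 CPM in aKO and 58.8 CPM in aWT endothelial cells (ratio 1.00, 0.958 to 1.05). It lay within 1.5-fold in each of the 5 classes and was highest in aerocytes, at 78.5 CPM in aKO and 85.4 CPM in aWT. Epha1 and Epha7 passed the minimum only through aWT arterial cells, Epha1 with 2.90 CPM in aKO and 5.03 CPM in aWT and Epha7 with 1.07 CPM in aKO and 5.25 CPM in aWT. These are 10 Epha7 UMIs in aKO and 71 in aWT, and Epha7 had 8 UMIs in each library under the stringent definition, where it was under the minimum.

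Among the Slits, Slit3, a secreted Robo ligand, was lower in aKO in 4 of 5 classes. In aKO it stood at 59.9 CPM in general capillary, 26.1 CPM in aerocyte, 24.6 CPM in arterial, 30.8 CPM in venous and 7.28 CPM in lymphatic cells. In aWT it stood at 124.5, 17.1, 119, 84.4 and 14.1 CPM in the same classes. General capillary cells were the highest class in both libraries. Aerocytes were the only class in which aKO was above aWT, within 1.5-fold on the scale with 5 CPM added. When a class needed 3 markers, aWT Slit3 was instead highest in arterial cells (144 CPM, against 106 CPM in aWT general capillary cells), and aKO stayed highest in general capillary cells at 43.6 CPM.

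Slit3 in general capillary cells was 2.08-fold lower in aKO (1.89 to 2.30), and in venous cells 2.74-fold (2.45 to 3.07). The largest ratio was in arterial cells, 4.83-fold lower (4.20 to 5.57). Stringent arterial cells held 7.41 CPM in aKO and 70.8 CPM in aWT, a 9.56-fold difference (6.67 to 14.1) resting on 36 UMIs in aKO and 188 in aWT. The lymphatic difference rested on 97 UMIs in aKO and 39 in aWT and was short of the rule with the stringent definition. In aerocytes the stringent levels were 5.27 CPM in aKO and 5.68 CPM in aWT, so that the higher aKO value was not present there.

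Slit2, which binds the same receptors, was best measured in arterial cells, at 27.1 CPM in aKO and 29.6 CPM in aWT (ratio 0.915, 0.778 to 1.07). In stringent arterial cells it stood at 36.4 CPM in aKO and 91.9 CPM in aWT, 2.52-fold lower (2.07 to 3.08). In all endothelial cells Slit2 stood at 7.46 CPM in aKO and 12.6 CPM in aWT, within 1.5-fold on the scale with 5 CPM added. For both Slits the arterial difference was thus wider in the stricter arterial cells.

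Of the Slit receptors, Robo4, the endothelial Robo, stood at 94.6 CPM in aKO endothelial cells and 87.0 CPM in aWT (ratio 1.09, 1.05 to 1.13). It was highest in aerocytes of both libraries, at 124 CPM in aKO and 110 CPM in aWT, and lowest in arterial cells. The arterial level was 38.5 CPM in aKO and 66.9 CPM in aWT, 1.74-fold lower, whereas the stringent definition gave 24.3 CPM in aKO and 25.6 CPM in aWT (1.06-fold, 0.771 to 1.43). Robo2, a receptor best known from axons, was found mainly in venous cells, with 249 UMIs in aKO and 86 in aWT, or 16.3 and 7.80 CPM (2.10-fold higher in aKO, 1.63 to 2.71). That direction turned after thinning to 2000 UMIs per cell, to a log2 ratio of -0.32, and with every cell given equal weight the ratio was 0.35, short of the rule. Robo1 reached the minimum only in arterial cells, at 6.12 CPM in aKO and 5.25 CPM in aWT. In stringent arterial cells Robo1 instead lay lower in aKO, at 10.7 CPM against 17.3 CPM in aWT (ratio 0.6175, 0.407 to 0.939). That difference was within 1.5-fold on the scale with 5 CPM added.

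**Figure D3:**
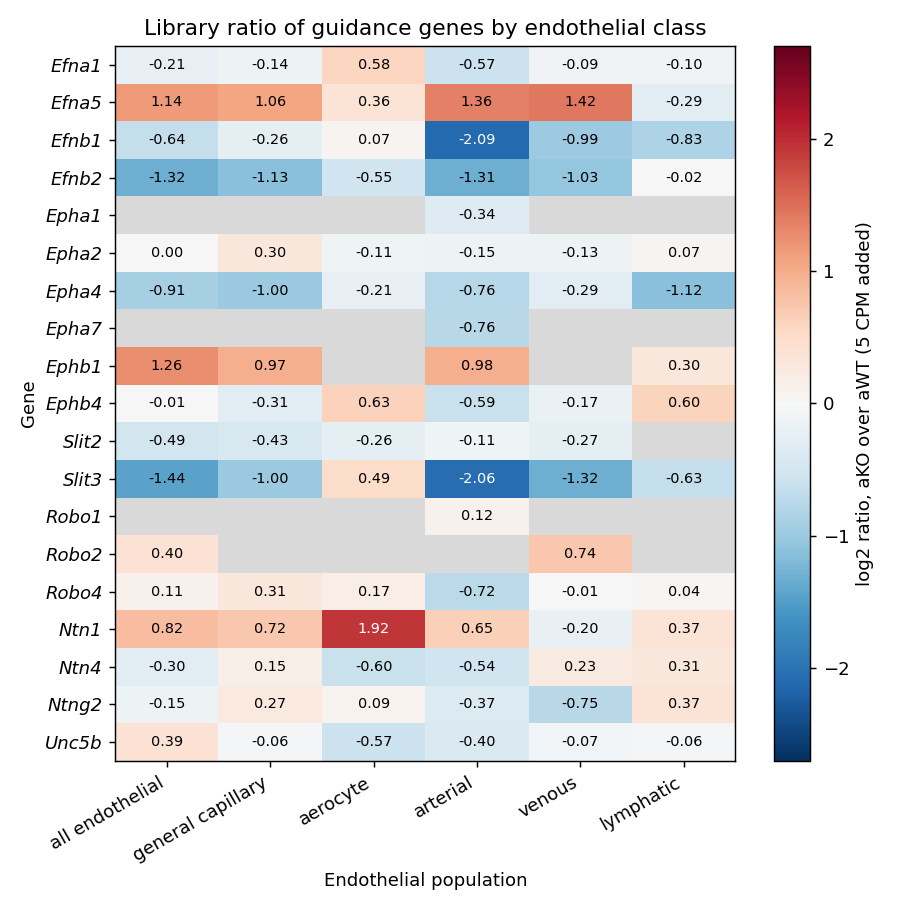
Log2 ratio of aKO over aWT, after adding 5 CPM, of the 19 measured guidance genes (rows) in all endothelial cells and the 5 classes (columns), in red where aKO is higher, in blue where it is lower and in grey where the gene was under 5 CPM in both libraries. Efnb2 and Slit3 are blue in general capillary, arterial and venous cells, and Ntn1 reaches its highest ratio, 1.92, in aerocytes.

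Ntn1, which encodes the secreted netrin-1, was the netrin that lay higher in aKO, at 439 CPM in all endothelial cells and 246 CPM in aWT. In aKO it stood at 389.8 CPM in general capillary, 254 CPM in aerocyte, 415 CPM in arterial, 321 CPM in venous and 915.5 CPM in lymphatic cells. In aWT it stood at 234, 63.4, 263, 368 and 706 CPM in the same classes. Lymphatic cells were the highest class and aerocytes the lowest in both libraries, and venous cells were the class in which aKO lay below aWT, within 1.5-fold.

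The largest Ntn1 ratio was in aerocytes, 4.01-fold higher in aKO (3.74 to 4.29). In stringent aerocytes both levels were smaller, at 47.7 CPM in aKO and 16.6 CPM in aWT, and the ratio was 2.87 (2.39 to 3.46). In general capillary cells Ntn1 was 1.66-fold higher in aKO (1.59 to 1.74). The arterial ratio of 1.58 became 1.16 with the stringent definition, at 418 CPM in aKO and 361 CPM in aWT, and ended that call. Equal class weights gave an endothelial log2 ratio of 0.48 in place of 0.82, short of the rule.

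After thinning, 32.7% of aKO aerocytes (31.1% to 34.3%) and 10.3% of aWT aerocytes (9.18% to 11.4%) held an Ntn1 UMI, against 55.0% in aKO and 17.8% in aWT before thinning at median depths of 5774 UMIs in aKO and 4523.5 UMIs in aWT. Among thinned lymphatic cells it was 76.3% in aKO and 69.9% in aWT. Of thinned alveolar type 2-like cells, 0 of 9 in aKO and 1 of 40 in aWT (2.50%, 0.0633% to 13.2%) held one. In aerocytes the summed lymphatic markers stood at 59.0 CPM in aKO and 34.7 CPM in aWT, and the summed general capillary markers at 1712 CPM in aKO and 1326 CPM in aWT. Their part in the aerocyte difference was not tested beyond the stringent definition, in which the capillary list was level. The lymphatic list was not level there, at 71.6 CPM in stringent aKO aerocytes and 33.8 CPM in aWT ones.

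Ntn4, a netrin of vascular basement membranes, stood at 109 CPM in aKO endothelial cells and 135 CPM in aWT and was highest in aerocytes. In aerocytes it was 1.54-fold lower in aKO, at 140 CPM against 216 CPM in aWT, but the stringent aerocytes were level, at 263 CPM in aKO and 266 CPM in aWT (ratio 0.988, 0.930 to 1.05). In stringent arterial cells it was 2.31-fold lower in aKO (2.06 to 2.58), at 115 CPM against 265 CPM in aWT, where the wider class gave 132 CPM in aKO and 195 CPM in aWT. Ntng2, which encodes the membrane-anchored netrin-G2, stood at 19.9 CPM in aKO endothelial cells and 22.5 CPM in aWT, and in venous cells at 7.94 CPM in aKO and 16.8 CPM in aWT (2.11-fold lower). In stringent lymphatic cells Ntng2 was past 1.5-fold higher in aKO, at 10.8 CPM against 4.56 CPM in aWT. It reached the minimum there through aKO alone, with 140 UMIs in aKO and 12 in aWT. Its exons overlap those of 6530402F18Rik on the same strand, so its counts are uncertain.

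Unc5b, the netrin receptor of endothelial cells, was above all a lymphatic gene, at 188 CPM in aKO and 196 CPM in aWT lymphatic cells (ratio 0.960, 0.874 to 1.06). In the blood vascular classes it ranged between 9.64 CPM (venous) and 35.8 CPM (aerocyte) in aKO, and between 10.3 CPM (venous) and 55.8 CPM (aerocyte) in aWT. It lay within 1.5-fold in all 5 classes on the scale with 5 CPM added. In stringent arterial cells it was 2.65-fold lower in aKO (1.97 to 3.59), at 16.1 CPM against 42.6 CPM in aWT.

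By class, general capillary cells held 3 higher members in aKO (Efna5, Ephb1 and Ntn1) and 3 lower ones (Efnb2, Epha4 and Slit3) among 15 measured, where 10.9% of all measured genes were as much higher and 5.98% as much lower. Ephb1 reached the minimum there through aKO alone. Aerocytes held 2 higher (Ephb4 and Ntn1) and 1 lower (Ntn4) of 14, against 9.38% higher and 6.02% lower of all genes. With the stringent definition it was 1 higher (Ntn1) and 2 lower (Efnb2 and Slit2) of 14, against 6.22% higher and 4.56% lower, and Slit2 reached the minimum through aWT alone. Median log2 ratios were -0.06 for the members and 0.10 for all genes in general capillary cells, and 0.08 and 0.09 in aerocytes.

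Arterial cells held 7 lower members of 18 (Efnb1, Efnb2, Epha4, Epha7, Ephb4, Robo4 and Slit3) and 3 higher ones (Efna5, Ephb1 and Ntn1), against 11.0% lower and 13.1% higher of all measured genes. Epha1 and Epha7 reached the minimum through aWT alone, and of the 16 members that reached it in both libraries 6 were lower and 3 higher. With the stringent definition 9 of 18 were lower (Efna1, Efnb1, Efnb2, Epha1, Ntn4, Robo2, Slit2, Slit3 and Unc5b) and 0 higher, against 8.7% lower and 9.01% higher of all genes. Epha1 and Robo2 passed there through aWT alone, with 19 and 11 UMIs in aKO, and of the 16 members at the minimum in both libraries 7 were lower. Only Efnb1, Efnb2 and Slit3 were lower under both definitions. Over those at the minimum in both libraries the median log2 ratio was -0.47 in arterial cells and -0.54 in stringent arterial cells, beside 0.01 for all measured genes under each definition. The all-gene shares and medians take genes at the minimum in 1 library or both. They are therefore no like-for-like background for the 16 members.

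**Figure D4:**
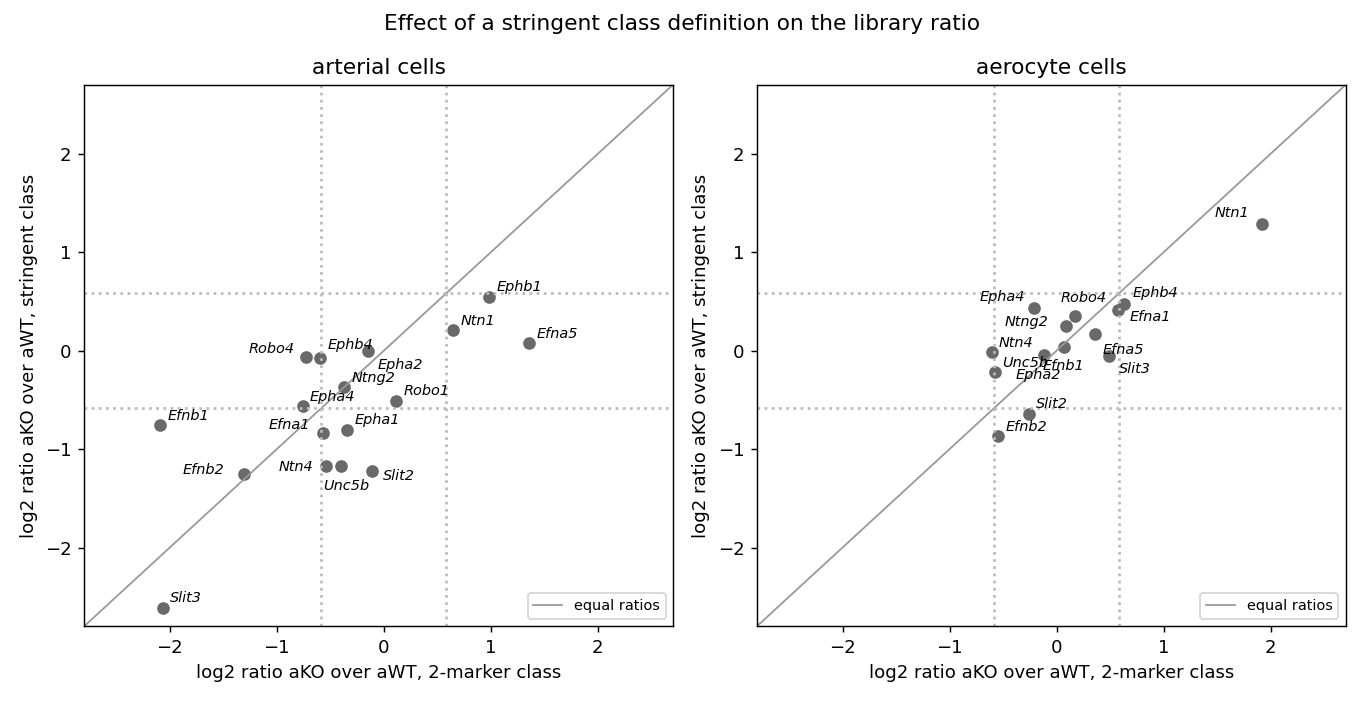
Log2 ratio of aKO over aWT of each guidance gene measured under both definitions, with the class that needs 2 markers on the x axis and the stringent class on the y axis, for arterial cells (left) and aerocytes (right). Dotted lines mark 1.5-fold, and the solid line marks equal ratios. Arterial Efnb2 keeps its ratio (-1.31 and -1.25), Efna5 moves to 0.07, Slit2 moves to -1.23, and aerocyte Ntn1 stays above 1.5-fold.

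Venous cells held 2 higher members (Efna5 and Robo2) and 4 lower ones (Efnb1, Efnb2, Ntng2 and Slit3) of 15, against 14.1% higher and 9.87% lower of all measured genes. The summed airway markers stood at 41.3 CPM in aKO and 2464 CPM in aWT venous cells, and the summed general capillary markers at 1675 CPM in aKO and 2910 CPM in aWT; their part in these values was not tested. In stringent venous cells Efnb2 was 1.78-fold lower in aKO, Efnb1 1.88-fold and Slit3 2.31-fold. Lymphatic cells held 1 higher (Ephb4) and 3 lower members (Efnb1, Epha4 and Slit3) of 14, against 5.52% higher and 5.72% lower. The members lower in lymphatic cells were there at low levels, all under 50 CPM in both libraries. Median log2 ratios were -0.17 for the members and 0.05 for all genes in venous cells, and 0.01 and 0.03 in lymphatic cells.

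The ranking of the classes was mostly shared by the libraries. Of 17 members at 5 CPM or more in some class of each library, 14 had the same highest class in both. Lymphatic cells were highest for Ntn1, Ephb1 and Unc5b, venous cells for Ephb4 and Robo2, and arterial cells for Efnb2, Epha4, Slit2 and Robo1. Aerocytes were highest for Ntn4, Ntng2, Robo4 and Epha2, and general capillary cells for Slit3. The next class down overlapped the highest in its counting interval for aKO Ntn4, Ntng2 and Robo4 and for aWT Ntng2 and Slit3. Highest classes differed for Efna1, Efna5 and Efnb1. For aKO Efna1 the counting intervals of general capillary and arterial cells overlapped, but not with the stringent definition. For aKO Efnb1 those of aerocytes and general capillary cells overlapped with the stringent definition only. The stringent definition also gave 14 of 17, with Efna5 now arterial in both libraries and Robo2 no longer shared, venous in aKO (12.7 CPM) but arterial in aWT (7.16 CPM, against 5.27 CPM in aWT venous cells, with overlapping intervals). When a class needed 3 markers, the highest class in aWT became arterial for Ntn4 (298 CPM) and Slit3, while aKO kept aerocytes and general capillary cells for them.

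The remaining 20 members were under 5 CPM in all endothelial cells and in every class of both libraries, with between 0 and 245 UMIs in the endothelial cells of a library. They were the ephrins Efna2, Efna3, Efna4 and Efnb3, the receptors Epha3, Epha5, Epha6, Epha8, Epha10, Ephb2, Ephb3 and Ephb6, Slit1, Robo3, Ntn3, Ntn5, Ntng1, Unc5a, Unc5c and Unc5d. Unc5a had the most of these, 245 UMIs in aKO and 164 in aWT, followed by Efna4 with 145 UMIs in aKO and 108 in aWT. Ntn5 and Epha8 had 0 UMIs in aKO and 2 in aWT. No ratio is given for these genes, and Ntn3 also overlaps exons of Tbc1d24 on its strand.

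A list of 46 partner genes covered adaptors, exchange factors, co-receptors and other binding proteins of the 3 families, of which 31 were measured in all endothelial cells. In aKO 8 were higher by the same rule (Chn1, Dapk1, Flrt2, Flrt3, Fyn, Kalrn, Sdc1 and Srgap3) and 1 lower (Tiam1), where 11.8% of all measured genes were as much higher and 6.38% as much lower. Their median log2 ratio was 0.05, against 0.09 for all genes. By family, 3 of 16 measured Eph and ephrin partners were higher and 1 lower, 2 of 9 Slit and Robo partners higher, and 3 of 6 netrin and Unc5 partners higher. Sdc1, a heparan sulfate proteoglycan, stood at 26.5 CPM in aKO and 6.46 CPM in aWT.

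Srgap3, of a protein family that Robo receptors bind inside the cell, stood at 33.7 CPM in aKO and 9.81 CPM in aWT. Flrt2, a leucine-rich repeat protein that binds Unc5 receptors, stood at 77.7 CPM in aKO and 35.7 CPM in aWT. Tiam1, a Rac exchange factor, was the lower one, at 2.71 CPM in aKO and 8.88 CPM in aWT, and reached the minimum through aWT alone. The number of partner genes at the minimum in both libraries was not counted. With the classes weighted equally 1 partner was higher in place of 8, and 1 was lower as before, with no share over all genes computed for that weighting.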

How the data were processed

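Sorted tdTomato-positive mouse lung cells were measured in 2 libraries, grouped as aKO and aWT by their titles. The deposited values are raw UMI counts of genes in barcodes. Per the submitters' processing notes they came from Cell Ranger 7.2.0 with the mm10 genome; whether intronic reads were counted is not given in the sources used here. The libraries held 75950364 UMIs in aKO and 72270260 in aWT.

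Kept barcodes had 500 genes or more and no more than 15% mitochondrial UMIs. Scrublet in scanpy 1.11.5, with an expected rate of 0.8% per 1000 barcodes, removed 370 aKO barcodes (3.43%) and 787 aWT barcodes (5.03%), under the expected 8.84% and 12.8%, so doublets may remain. An endothelial cell had at least 3 of 7 pan-endothelial markers with a UMI, outnumbering every other cell type's list. A class needed 2 markers and 3 UMIs of its list, and general capillary cells were those with 2 capillary markers and no other class.

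UMIs were summed per class and library. Intervals are exact Poisson (CPM), exact conditional binomial (ratios) and exact Clopper-Pearson (shares), at 95%, for counting error only. No test was possible. All measured members were named, and of the partner genes the 3 highest and 3 lowest past 1.5-fold. The 1.5-fold rule was run on Poisson counts simulated from the pooled aWT profile, with 2-fold and 3-fold changes planted. It called 0 of 10424 unchanged genes and recovered 49 of 50 genes set 2-fold lower. Those counts hold counting error only, with no difference in class mix, class purity or animals. They therefore cannot check the rule for such differences between these libraries. TMM factors came from edgeR 4.0.16. Gene overlaps came from GENCODE M21 on mm10, and promoters from RefSeq (GRCm38.p6), matched by symbol for 35 of 39 members. Members, lists and markers were chosen with earlier results of these data known. Alternatives were another pseudocount, other minimum levels, TMM, the mean over cells, thinning, doublets kept, stricter cell filters, 3 markers per class and equal class weights; the stringent classes were chosen later, with the data in view.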

Additional observations from a re-analysis of the deposited data

Results flagged for a closer look

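Ephb4 ran in opposite directions in different classes. Its log2 ratio of aKO over aWT was 0.629 in aerocytes (142 CPM in aKO and 90.2 CPM in aWT) and 0.596 in lymphatic cells (224 CPM in aKO and 147 CPM in aWT), but -0.594 in cells classed as arterial (115 CPM in aKO and 176 CPM in aWT). The difference between the classes was not tested. With the stringent definition the arterial log2 ratio was -0.08 and the aerocyte ratio 0.48, while the lymphatic ratio was 0.65.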

How the results depend on the processing

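No paired analysis was possible because each group has 1 library, and for the same reason no replicate could be left out. Of 136 recomputed counts 115 were within 1.5 times the reported one. With equal class weights 0 members were higher in all endothelial cells in place of 3, and 1 partner gene was higher in place of 8. Partner genes lower were 0 at a minimum of 10 CPM and 2 with the mean over cells, in place of 1. In aerocytes 1 member was higher with TMM factors, with doublets kept, with 3 markers per class and with stringent classes, in place of 2; lower members were 2 with a pseudocount of 1 CPM, with no minimum, with the mean over cells and with stringent classes, and 3 with TMM, in place of 1. In arterial cells stringent classes gave 0 higher in place of 3, and 3 markers gave 11 lower in place of 7. In venous cells 1 was higher with the mean over cells and with thinning, in place of 2. In lymphatic cells 0 were higher with the mean over cells and with doublets kept, and 2 with thinning and with stringent classes, in place of 1. Of 720 single log2 ratios 194 moved beyond their counting interval. Of the member calls reported above, 17 ended under at least 1 setting. In all endothelial cells they were Efna5, Efnb1, Ephb1 and Ntn1, and in general capillary cells Efna5. In aerocytes they were Ephb4 and Ntn4, of 2 higher and 1 lower. Arterial ones were Efna5, Epha4, Epha7, Ephb1, Ephb4, Ntn1 and Robo4, of 3 higher and 7 lower. The others were venous Robo2 and lymphatic Ephb4 and Slit3. A called ratio changed direction once, venous Robo2 with thinning (-0.320, within 1.5-fold). Thinning left out 1438 aKO and 2313 aWT cells. The cause of these shifts was not tested. Shares over all measured genes were computed for the 2-marker classes and for stringent aerocytes and arterial cells only. The other recomputed counts have no such background, so they are no result about the members beyond the change in number.

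Intervals hold counting error alone, and the spread between animals is unknown. Sex and genotype cannot be told apart with these libraries.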
